A study of Mus musculus with 6 samples.

Results

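Condensin and cohesin are ring-shaped protein complexes built on pairs of SMC ATPases, long coiled-coil proteins that fold chromatin into loops. The genes described here were the 10 rows of the count table whose symbol is Smc2, Smc4, Ncapd2, Ncapg, Ncaph, Ncapd3, Ncapg2, Ncaph2, Smc1a or Smc3, of 23420 rows in all, and all 10 passed the filter on low counts. They encode every subunit of condensin I and condensin II and the SMC pair of mitotic cohesin.

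Polyadenylated RNA came from pancreatic islets of C57BL/6J mice. In the OIO group Ensure, a liquid diet, was infused into the stomach at 13 to 18.5 kcal each day over 9 days, and in the Control group saline was infused in the same way for 9 days. Each group held 3 libraries, of 20968058 to 48178375 counts. The labels give no age, sex or number of mice for a library and do not say that libraries came from separate mice, so the p-values measure the spread between libraries, which may be technical. Ins1, Ins2, Gcg and Iapp together took 29.1% to 30.8% of the counts in OIO libraries and 27.1% to 29.0% in Control libraries. This sum does not show the balance between the hormone genes, which differed in Control replicate 2. Whole islets hold several cell types, and more cells of a type or more RNA per cell cannot be told apart in such RNA.

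Condensin packs chromosomes for mitosis. Smc2 and Smc4 form the arms of both condensins. Condensin I adds the kleisin Ncaph, which closes the ring, and the HEAT-repeat subunits Ncapd2 and Ncapg, and it reaches chromosomes after the nuclear envelope breaks down. Condensin II adds Ncaph2, Ncapd3 and Ncapg2 and is nuclear throughout the cell cycle. Cohesin, with Smc1a and Smc3 as its arms, holds sister chromatids together from S phase to anaphase and shapes chromatin loops in dividing and resting cells alike. Adult beta cells rarely divide, and which islet cells gave the reads of genes needed only in mitosis was not tested.

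Of the 10 genes, 6 rose in OIO islets and none fell. In order of log2 fold change these were Ncapg, Smc2, Ncapd2, Ncapg2, Smc4 and Smc1a, from 1.49 down to 0.20. Ncaph, Ncaph2, Ncapd3 and Smc3 did not pass the test. The test was edgeR's quasi-likelihood test with Benjamini-Hochberg adjustment over 14903 genes and a threshold of 0.05. Of all genes tested, 4.54% were called higher and 2.84% lower, or 7.37% in either direction. The median log2 fold change was 0.65 over the 10 genes, 0.89 over the 8 condensin genes and −0.01 over all genes tested. Expression is given as CPM, a count relative to the scaled library size.

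**Figure D1:**
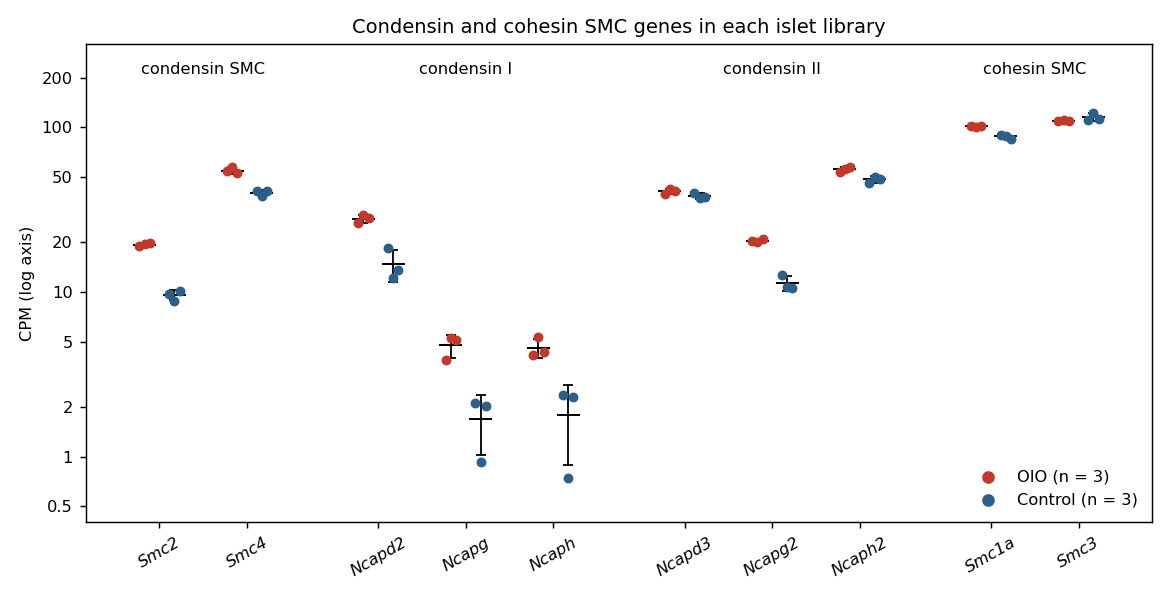
CPM on a log axis for each of the 10 genes, with 3 OIO points to the left of 3 Control points and black bars for mean and SD. The OIO points lie above the Control points for 8 genes, below them for Smc3, and the groups overlap for Ncapd3.

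Promoter sequences of several members are shown because cell cycle genes often carry a CHR (cell cycle genes homology region) element, the binding site of the MuvB complexes, close to their start. RefSeq windows on GRCm38.p6, from 250 bases before to 50 bases after a start, were held for 9 of the 10 genes (not Smc4) and gave 10 windows, Ncapd3 having 2. They were searched on both strands for the CHR letters TTTGAA and TTCGAA, for CCAAT, and for the E2F letters TTTGGCGC, TTTCCCGC, TTTGCCGC and TTTCGCGC. CHR letters were in 6 of the 10 windows, against 19.2% of 32851 mouse windows. CCAAT was in 4, against 37.4%, and E2F letters were in 4, against 2.26%. The stretches below lie upstream of the first start in either annotation and are read 5′ to 3′ along the gene, with matched letters of either strand in capitals. They are from chr4:52439071-52439220 (plus strand) for Smc2, chr6:125191702-125191836 (minus strand) for Ncapd2, chr5:45669769-45669918 (plus strand) for Ncapg, chr15:89355569-89355718 (plus strand) for Ncaph2, chr2:127133955-127134104 (minus strand) for Ncaph and chr19:53600246-53600395 (plus strand) for Smc3.
Smc2: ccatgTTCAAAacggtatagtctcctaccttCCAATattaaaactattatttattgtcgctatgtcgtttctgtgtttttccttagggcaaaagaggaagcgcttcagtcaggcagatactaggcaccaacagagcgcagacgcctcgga
Ncapd2: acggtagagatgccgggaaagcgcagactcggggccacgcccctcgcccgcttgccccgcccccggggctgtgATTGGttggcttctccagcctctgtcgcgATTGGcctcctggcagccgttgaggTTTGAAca
Ncapg: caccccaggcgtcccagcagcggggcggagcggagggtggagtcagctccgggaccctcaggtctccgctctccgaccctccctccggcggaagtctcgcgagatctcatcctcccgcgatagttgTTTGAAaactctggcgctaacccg
Ncaph2: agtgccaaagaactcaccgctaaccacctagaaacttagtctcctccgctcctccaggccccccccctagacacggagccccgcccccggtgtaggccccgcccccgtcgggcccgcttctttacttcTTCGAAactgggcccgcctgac
Ncaph: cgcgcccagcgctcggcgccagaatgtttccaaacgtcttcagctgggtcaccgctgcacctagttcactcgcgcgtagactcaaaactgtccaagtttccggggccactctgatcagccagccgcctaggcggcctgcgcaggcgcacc
Smc3: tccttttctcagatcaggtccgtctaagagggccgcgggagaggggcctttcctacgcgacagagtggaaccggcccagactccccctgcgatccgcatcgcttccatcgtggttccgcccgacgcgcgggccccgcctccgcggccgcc

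Relative to the RefSeq start, CHR letters began at −30 in Ncapg, at −18 in Ncapg2, at −123 in Ncapd2 and, on the opposite strand, at −145 and 27 in Smc2. All 4 of these genes rose. For Ncapg, Ncapg2 and Ncapd2 the start in GENCODE M21 lies 6, 34 and 115 bases upstream of the RefSeq start. The CHR letters of Ncapg2 thus lie inside its GENCODE transcript. Ncaph2, which did not pass, held TTCGAA at −22, and Ncapd3, which did not pass either, held CHR letters near the far end of 1 of its windows. Neither Ncaph nor Smc3 held any of the searched letters in its window, and Smc1a held CCAAT and E2F letters without CHR letters. E2F letters were also in the windows of Ncapd2, Ncapg and Ncapg2, and CCAAT in those of Smc2, Ncapd2 and Ncapg. These matches describe the sequence and are not measured binding sites, and a window without a match says nothing about a factor.

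The genes lie on 10 different chromosomes of GRCm38, all annotated as protein-coding in GENCODE M21. A count covers a whole gene, so exons are not resolved. Smc2 is at chr4:52439243-52488260, Smc4 at chr3:69004738-69034623, Ncapd2 at chr6:125168007-125191701, Ncapg at chr5:45669919-45700546 and Ncaph at chr2:127103809-127133954. Ncapd3 is at chr9:27030175-27095315, Ncapg2 at chr12:116405402-116463731, Ncaph2 at chr15:89355719-89372826, Smc1a at chrX:152016428-152062694 and Smc3 at chr19:53600398-53645833. Annotated exons of Ncapg share 769 bases with Lcorl on the opposite strand, and those of Ncaph2 share 829 bases with Sco2 and 535 bases with Tymp. The labels do not say whether the libraries keep strand, so reads from these stretches cannot be told apart. Lcorl had 54.6 to 61.7 CPM in OIO and 54.5 to 57.3 CPM in Control libraries, with a log2 fold change of 0.04 (adjusted p = 0.72). Sco2 was at 0.95 to 1.27 CPM in OIO and 0.81 to 1.47 CPM in Control libraries, and Tymp at most at 0.21 CPM in any library.

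Both condensin arms rose, and Smc2 had the larger log2 fold change. Smc2 had 18.9, 19.4 and 19.7 CPM in OIO replicates 1, 2 and 3, and 9.71, 8.87 and 10.2 CPM in Control replicates 1, 2 and 3. Its lowest OIO library was thus well above its highest Control library, and its log2 fold change was 1.01 (SE 0.08, 95% interval 0.83 to 1.20, adjusted p = 2.4e-04). Smc4 had 54.0, 57.2 and 52.4 CPM in OIO replicates 1 to 3, against 41.3, 38.3 and 40.7 CPM in Control replicates 1 to 3. Its groups did not overlap either, and its log2 fold change was 0.44 (SE 0.06, interval 0.31 to 0.58, adjusted p = 0.0024). The intervals of the pair did not overlap.

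Of the condensin I subunits, Ncapg and Ncapd2 rose, and Ncapg and Ncaph had the largest log2 fold changes of the 10 genes. Ncapg, a HEAT-repeat subunit, had 3.88, 5.24 and 5.09 CPM in OIO replicates 1 to 3, and 2.12, 0.93 and 2.04 CPM in Control replicates 1 to 3. It rose by 1.49 on the log2 scale (SE 0.29, interval 0.85 to 2.14, adjusted p = 0.016). The groups did not overlap, but the call was lost without OIO replicate 2 (adjusted p = 0.064) or OIO replicate 3 (adjusted p = 0.058). Ncapd2, the other HEAT-repeat subunit, had 26.1, 29.1 and 28.0 CPM in OIO replicates 1 to 3, and 18.4, 12.2 and 13.6 CPM in Control replicates 1 to 3. Control replicate 1 was the highest Control library and still below all OIO libraries. Ncapd2 rose by 0.92 (SE 0.14, interval 0.60 to 1.24, adjusted p = 0.0082).

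Ncaph, the kleisin of condensin I, had 4.12, 5.30 and 4.34 CPM in OIO replicates 1 to 3, and 2.35, 0.75 and 2.29 CPM in Control replicates 1 to 3. The groups did not overlap and the log2 fold change was 1.36 (SE 0.37, interval 0.50 to 2.22), but the adjusted p was 0.068. Control replicate 2 stood apart, with 29 counts of Ncaph. The exact 95% Poisson interval of that count, 19.4 to 41.7, covers counting error only and corresponds to 0.50 to 1.07 CPM, below the intervals of the other Control libraries, whose lower bounds were 1.87 and 1.85 CPM. Without Control replicate 2 the log2 fold change was 0.99 and passed (SE 0.20, adjusted p = 0.026). DESeq2 called it (adjusted p = 0.0015), as did limma voom (adjusted p = 0.035).

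Of the condensin II subunits, Ncapg2 rose and its partners did not pass. Ncapg2, the HEAT-repeat subunit that corresponds to Ncapg, had 20.5, 20.1 and 20.9 CPM in OIO replicates 1 to 3, and 12.6, 10.6 and 10.6 CPM in Control replicates 1 to 3. It rose by 0.86 (SE 0.09, interval 0.66 to 1.06, adjusted p = 6.6e-04), with little spread within either group. Ncaph2, the kleisin, had 53.6, 55.5 and 57.5 CPM in OIO replicates 1 to 3, against 46.0, 50.1 and 48.6 CPM in Control replicates 1 to 3. Its groups were close but did not overlap, and its log2 fold change of 0.20 (SE 0.06, interval 0.07 to 0.33) had an adjusted p of 0.063, and 0.047 in DESeq2. Ncapd3 had 39.4, 42.4 and 40.8 CPM in OIO replicates 1 to 3, and 40.0, 37.2 and 37.6 CPM in Control replicates 1 to 3. These overlapped, and the interval of its log2 fold change, −0.04 to 0.23, lay wholly below that of Ncapg2 (adjusted p = 0.37).

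The cohesin arms had small log2 fold changes of opposite sign, and only Smc1a passed. Smc1a had 102, 99.99 and 101 CPM in OIO replicates 1 to 3, and 89.8, 88.7 and 85.3 CPM in Control replicates 1 to 3. It rose by 0.20 (SE 0.05, interval 0.09 to 0.31, adjusted p = 0.038), a 1.15-fold difference. The call was lost without any 1 of the 6 libraries (adjusted p between 0.052 and 0.11) and when libraries were scaled by size alone (adjusted p = 0.12). Smc3 had 109, 109.98 and 108 CPM in OIO replicates 1 to 3, and 110.5, 122 and 113 CPM in Control replicates 1 to 3. All OIO libraries were below all Control libraries by a small margin, and its log2 fold change of −0.08 (SE 0.06, interval −0.20 to 0.04) did not pass (adjusted p = 0.43).

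For 8 of the 10 genes the lowest OIO library was above the highest Control library, against 14.1% of all genes tested, and for 1 the order was the reverse, against 15.1%. The number called higher was between 4 and 6 when 1 library was left out, and 4 without OIO replicate 2 or OIO replicate 3. DESeq2 called 8 and limma voom 7 of the 10 genes higher. Scaling by library size alone gave 5 higher, and turned the balance over all genes from 676 higher and 423 lower to 498 higher and 1113 lower. The calls over all genes also fell when libraries were left out. There were 401 higher and 112 lower without OIO replicate 1, 336 and 124 without OIO replicate 2, 356 and 150 without OIO replicate 3, and 440 and 261 without Control replicate 2. Without Control replicate 1 there were 257 lower genes.

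**Figure D2:**
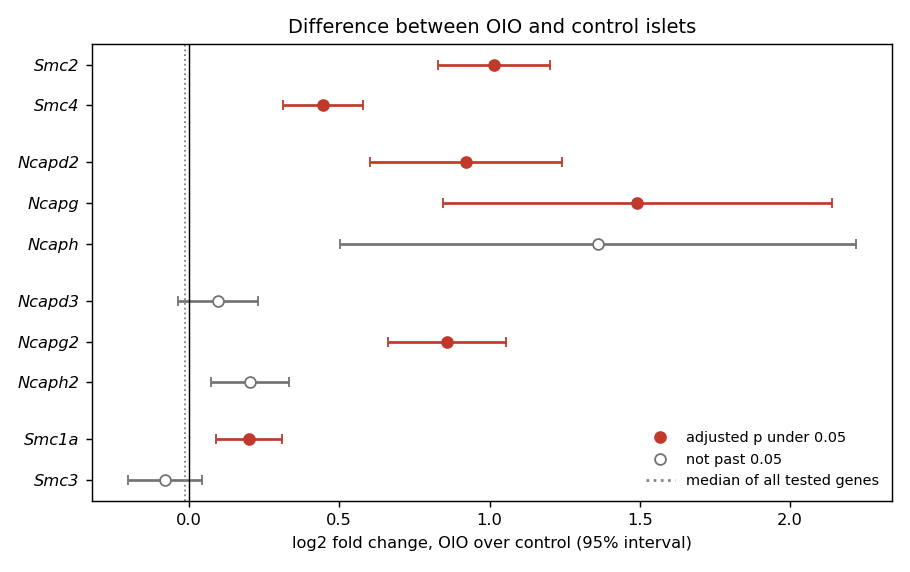
Log2 fold change of OIO over Control islets with 95% intervals from 3 libraries per group, for the condensin arms, condensin I, condensin II and cohesin arms from top to bottom. The intervals of Ncapd3 (−0.04 to 0.23) and Smc3 (−0.20 to 0.04) include 0, and Ncaph has the widest interval (0.50 to 2.22).

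In the authors' deposited table the same 5 condensin genes passed 0.05, with Smc2 at 1.02 (adjusted p = 6.5e-04), Ncapg at 1.61 (adjusted p = 0.023) and Ncapg2 at 0.86 (adjusted p = 0.0019). Smc1a had an adjusted p of 0.056 and Ncaph of 0.059 in the authors' deposited table. Its header does not give the direction of the log2 fold change, and its sign was that of OIO over Control in 97.7% of 14903 genes.

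The genes differed in how far Control libraries spread. Relative to the Control mean of log2 CPM, Control replicate 2 was at −1.09 for Ncaph, −0.78 for Ncapg and −0.25 for Ncapd2, and Control replicate 1 was at 0.57, 0.42 and 0.34. Mki67, the gene of the Ki-67 proliferation antigen, was at −0.64 and 0.50 in these libraries. Top2a, the topoisomerase that acts beside condensin on mitotic chromosomes, was at −0.68 and 0.49. For Smc3, Control replicate 2 was the highest of the 6 libraries, at 0.09. Control replicate 2 differed in hormone genes too, with Gcg at 77384 CPM against 42487 and 47885 CPM in Control replicates 1 and 3. Ins2 was at 109954 CPM in Control replicate 2, against 140794 and 149810 CPM in Control replicates 1 and 3. Whether the libraries differed in cell make-up or in the number of dividing cells was not tested.

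**Figure D3:**
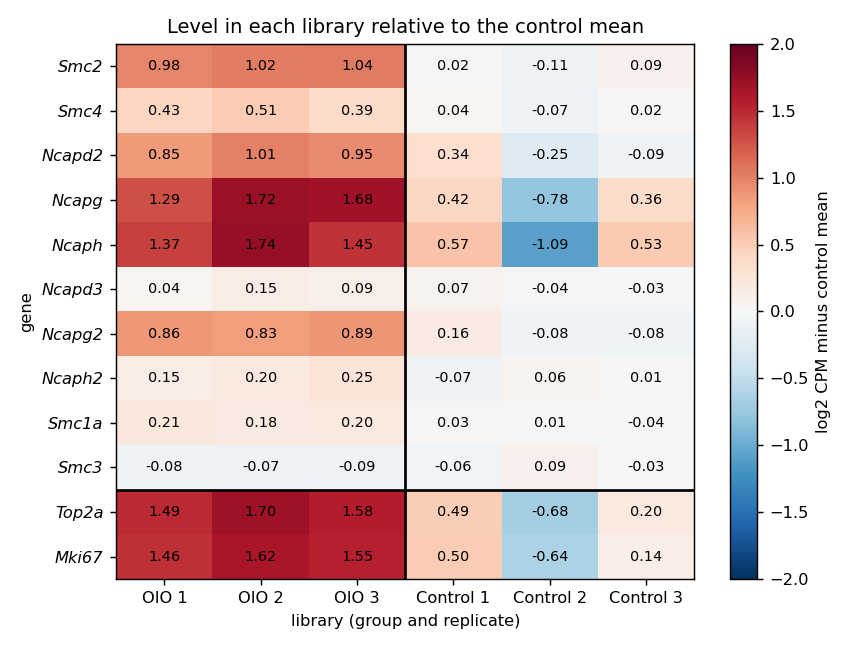
Log2 CPM of each gene in each library minus the mean of the 3 Control libraries, with OIO libraries on the left, Control on the right, and Top2a and Mki67 in the bottom rows for comparison. Control replicate 2 is the lowest library for Ncaph (−1.09), Ncapg (−0.78), Top2a (−0.68) and Mki67 (−0.64).

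Levels of different genes were compared per kilobase of the longest annotated coding transcript. In OIO islets Smc3 (22.5 ± 0.17 CPM per kilobase, mean ± SD, n = 3) and Smc1a (21.5 ± 0.21) led, followed by Ncaph2 (16.8 ± 0.59), Smc4 (12.6 ± 0.56), Ncapd3 (7.43 ± 0.27), Ncapd2 (5.99 ± 0.33), Ncapg2 (4.37 ± 0.08), Smc2 (3.58 ± 0.08), Ncaph (1.70 ± 0.23) and Ncapg (1.28 ± 0.20). In Control islets Smc3 (23.7 ± 1.26), Smc1a (18.8 ± 0.50), Ncaph2 (14.6 ± 0.64), Smc4 (9.29 ± 0.37) and Ncapd3 (6.96 ± 0.28) kept that order. They were followed by Ncapd2 (3.18 ± 0.70), Ncapg2 (2.41 ± 0.24), Smc2 (1.77 ± 0.12), Ncaph (0.67 ± 0.34) and Ncapg (0.46 ± 0.18). In Control libraries the values of Ncaph overlapped those of Ncapg, and the values of Ncapd2 overlapped those of Ncapg2. The cohesin arms were thus at the top in both groups, and the condensin I subunits Ncaph and Ncapg at the bottom.

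Ratios between members within a library do not depend on how libraries are scaled. The ratio of Smc2 to Smc4, partners in the same ring, was 0.279, 0.271 and 0.300 per kilobase in OIO replicates 1 to 3, and 0.188, 0.185 and 0.199 in Control replicates 1 to 3. It was higher in every OIO library, with a difference of 0.57 on the log2 scale. Smc1a over Smc3 was 0.970, 0.940 and 0.965 in OIO libraries and 0.841, 0.752 and 0.782 in Control libraries, a log2 difference of 0.28. Smc2 over Smc3, an arm of condensin against an arm of cohesin, was 0.156 to 0.163 in OIO libraries. In Control libraries it was 0.0652 to 0.0808, a log2 difference of 1.09. The other arms differed less, with log2 fold changes of 0.44 for Smc4 and 0.20 for Smc1a, so this pair does not stand for the complexes.

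The counterparts of condensin I and II were set against each other in the same way. Ncapd2 over Ncapd3 was 0.787 to 0.816 in OIO libraries and 0.388 to 0.545 in Control libraries, a log2 difference of 0.84. Ncaph over Ncaph2 was 0.0942, 0.117 and 0.0926 in OIO replicates 1 to 3, and 0.0627, 0.0182 and 0.0578 in Control replicates 1 to 3, a log2 difference of 1.32, and of 0.74 without Control replicate 2. As a share of both kleisins per kilobase, Ncaph made up 8.47% to 10.5% in OIO libraries and 1.79% to 5.90% in Control libraries. Ncapg over Ncapg2 was 0.240 to 0.330 in OIO libraries and 0.110 to 0.243 in Control libraries, and these overlapped (log2 difference 0.70, and 0.35 without Control replicate 2). With 3 libraries against 3, a 2-sided exact permutation test cannot give a p under 0.1. Over the 6 ratios it gave that smallest value, 0.1, for 5 (adjusted 0.12) and 0.2 for Ncapg over Ncapg2 (adjusted 0.2), so none passed 0.05.

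**Figure D4:**
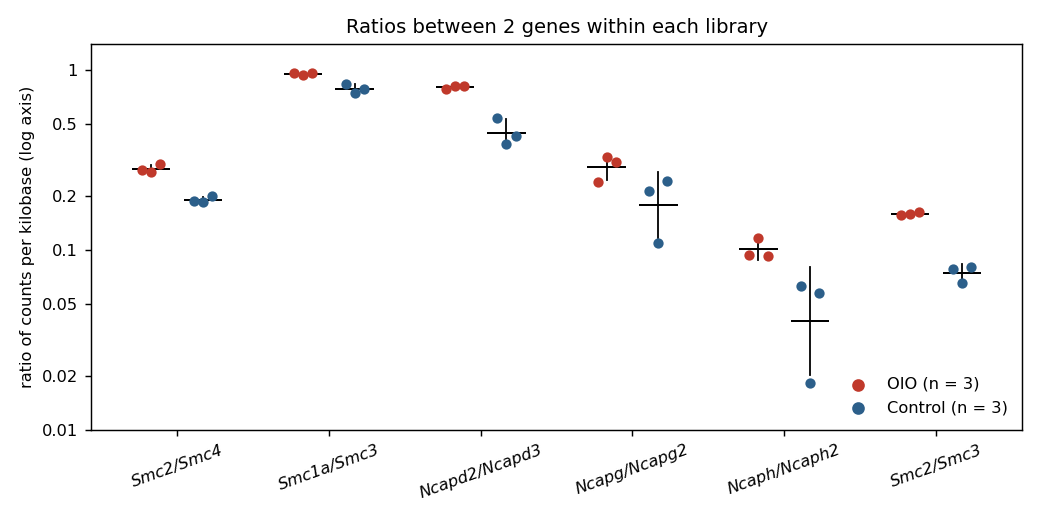
Ratio of counts per kilobase between a pair of genes within each library, on a log axis, with 3 OIO points left of 3 Control points and black lines for the mean and SD of the log2 ratio. The groups are apart for 5 of the 6 ratios and overlap for Ncapg over Ncapg2 (0.240 to 0.330 in OIO and 0.110 to 0.243 in Control libraries).

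The genes that load, close, protect and cut the cohesin ring were read in the same fit. Of 21 other cohesin genes, 6 were called higher, against 4.54% of all genes tested. None was called lower and 15 were called in neither direction, and the median log2 fold change of the 21 was 0.10. Of 10 that encode subunits, the loader, release factors, the deacetylase Hdac8 and Ctcf, none was called, and their log2 fold changes lay between −0.15 and 0.15. Rad21, the kleisin of mitotic cohesin, had 259, 268 and 335 CPM in OIO replicates 1 to 3, and 265, 259 and 258 CPM in Control replicates 1 to 3. OIO replicate 3 was high and the other libraries overlapped, and its log2 fold change of 0.14 had an adjusted p of 0.39. Stag2, which binds Rad21, was at −0.15 (adjusted p = 0.12) and Wapl, the release factor listed as Wapal, at −0.13 (adjusted p = 0.15). With libraries scaled by size alone, 3 of the 21 genes (Stag2, Wapl and Esco1) were called lower and 5 higher.

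All 6 genes that rose were among the 11 that establish, protect or remove cohesion, a division by role made after the values were seen. Dscc1 and Chtf18, of the clamp loader that couples cohesion to replication, rose by 2.02 (SE 0.32, adjusted p = 0.0061) and 1.19 (SE 0.25, adjusted p = 0.018). Chtf8, the third gene specific to that clamp loader, was at 0.03 with overlapping groups (adjusted p = 0.81). Dscc1 had 1.77, 2.11 and 1.72 CPM in OIO replicates 1 to 3, and 0.52, 0.28 and 0.57 CPM in Control replicates 1 to 3. Cdca5, or sororin, which counters Wapl, rose by 1.52 (SE 0.38, adjusted p = 0.037), and Esco2, which acetylates Smc3 in S phase, by 1.30 (SE 0.32, adjusted p = 0.039). Sgo2a, a protector of centromeric cohesion listed as Sgol2, rose by 1.21 (SE 0.24, adjusted p = 0.017) and the helicase Ddx11 by 0.77 (SE 0.20, adjusted p = 0.044). Esco1, the other Smc3 acetyltransferase, was at −0.23 (adjusted p = 0.097), and Espl1, the separase that cleaves Rad21, at 0.97 (adjusted p = 0.067). Pttg1 and Sgo1, the rest of the 11, were at −0.19 (adjusted p = 0.26) and 0.66 (adjusted p = 0.18). The 6 genes that rose were low, averaging at most 3.84 CPM in OIO islets. Of them, Dscc1 alone stayed past 0.05 in all 6 fits that left out a library. Leaving out OIO replicate 1 left 2 of the 21 called higher, leaving out OIO replicate 2 left 1, leaving out OIO replicate 3 left 3, and leaving out Control replicate 2 left 2.

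**Figure D5:**
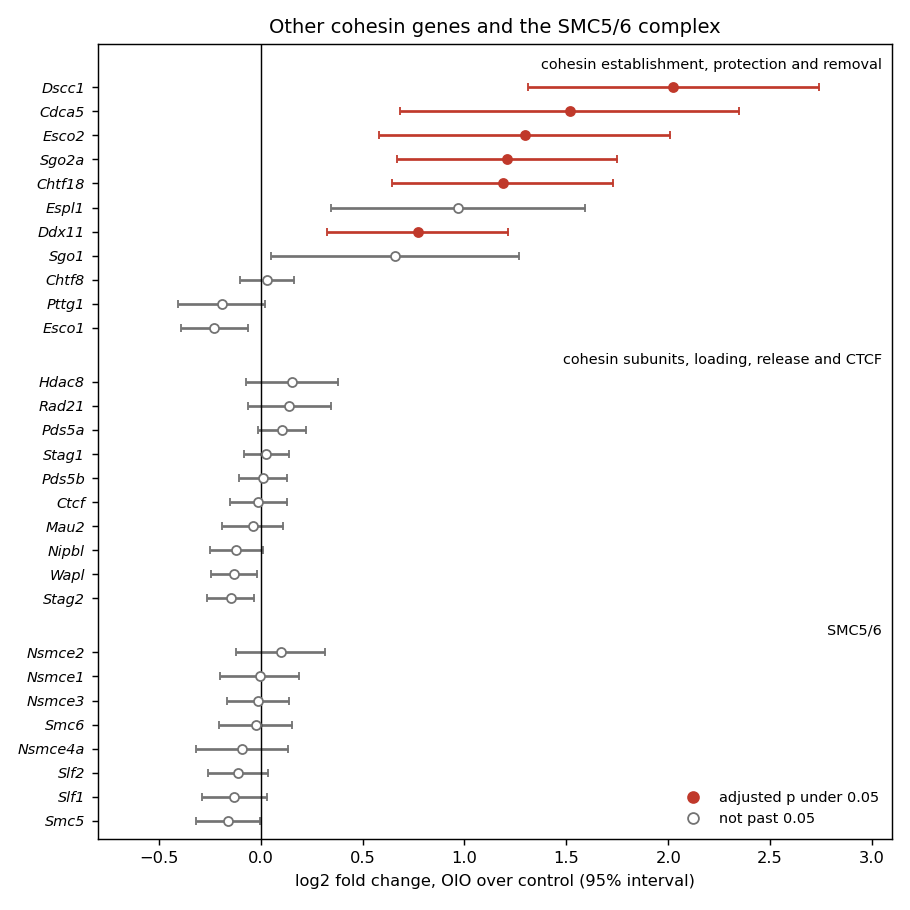
Log2 fold change of OIO over Control islets with 95% intervals from 3 libraries per group, for genes that establish, protect or remove cohesion (top), for cohesin subunits, loading and release factors and Ctcf (middle), and for the SMC5/6 complex (bottom). Filled points passed 0.05, and all 6 of them are in the top group, between 0.77 and 2.02.

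The SMC5/6 complex, the third SMC complex of the nucleus and a DNA repair factor, held no call. Over all genes tested, 7.37% were called in either direction, and no call among so few genes is near that share. Of its 9 listed genes 8 were tested, with a median log2 fold change of −0.06. None passed in edgeR, DESeq2 or limma voom. In edgeR 1 had an unadjusted p under 0.05, against 3493 of all 14903 genes tested. The gene under 0.05 was Smc5, at −0.16 (SE 0.07, adjusted p = 0.21), and Smc6 was at −0.02 (SE 0.08, adjusted p = 0.89). Eid3 was below the filter.

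Of 10 genes that act with condensin on mitotic chromosomes or are related to it, 5 were called higher, against 4.54% of all genes tested. None was called lower and 5 were called in neither direction, and their median log2 fold change was 1.41. This list was chosen with earlier results of these data known. Kif4, a chromokinesin whose human counterpart binds condensin I, rose by 1.48 (SE 0.21, adjusted p = 0.0040), and Kif22, another chromokinesin, by 1.23 (SE 0.19, adjusted p = 0.0047). The kinases Aurkb, at 1.69 (SE 0.34, adjusted p = 0.018), Cdk1, at 1.57 (SE 0.28, adjusted p = 0.023), and Plk1, at 1.34 (SE 0.24, adjusted p = 0.010), rose as well, and all 3 are known to phosphorylate condensin subunits. Top2a had 43.2, 50.1 and 46.0 CPM in OIO replicates 1 to 3, and 21.7, 9.61 and 17.7 CPM in Control replicates 1 to 3, without overlap, and a log2 fold change of 1.52 (adjusted p = 0.058). Mki67 was at 1.48 (adjusted p = 0.059). Top2a and Mki67 passed in DESeq2, in limma voom, without robust dispersions, with libraries scaled by size alone, and without Control replicate 1 or Control replicate 2, with adjusted p for Top2a between 2.8e-04 and 0.049 in these fits. Top2b, the paralog of Top2a, which is also expressed in cells that do not divide, was at −0.13 (adjusted p = 0.17). Mcph1, which restrains condensin II in interphase, was at 0.02 (adjusted p = 0.93). Cdk1 lost its call when Control replicate 1 or any OIO library was left out (adjusted p between 0.054 and 0.082), and Aurkb lost it without OIO replicate 2 (adjusted p = 0.066) or OIO replicate 3 (adjusted p = 0.064). The number of the 10 genes called higher was 3 without OIO replicate 2 or OIO replicate 3, and 7 without Control replicate 2, in DESeq2, in limma voom, without robust dispersions and with scaling by library size alone.

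Markers of other cells were read beside these genes. Of 10 T and B cell markers, 6 were tested and 5 of those had a positive log2 fold change, but none passed. Over all genes, 7081 of the 14903 tested had a positive log2 fold change, and 7.37% were called in either direction. The summed level of all 10 was 23.7, 52.4 and 35.9 CPM in OIO replicates 1 to 3, and 19.8, 20.1 and 43.3 CPM in Control replicates 1 to 3, with Cd3d at 0 in OIO replicate 1, Cd3e at 0 in Control replicate 1, and Cd8b1 at 0 in Control replicate 2. The groups overlapped, with OIO replicate 2 highest and Control replicate 1 lowest. Ptprc, which is not specific to T and B cells, was the largest term of the sum in every library. It had 17.6, 23.0 and 20.1 CPM in OIO replicates 1 to 3, and 13.3, 11.8 and 20.4 CPM in Control replicates 1 to 3. Ms4a1, a B cell gene, spread far more, with 7, 520 and 140 counts in OIO replicates 1 to 3. It had 4, 3 and 260 counts in Control replicates 1 to 3. Summed stromal markers were 175 to 336 CPM in OIO and 217 to 608 CPM in Control libraries, and acinar markers 2534 to 5879 CPM in OIO and 2157 to 6998 CPM in Control libraries. Macrophage markers summed to 139 to 185 CPM in OIO and 126 to 181 CPM in Control libraries, and endothelial markers to 596 to 679 CPM in OIO and 612 to 623 CPM in Control libraries. No gene of these lists passed, against 7.37% called over all genes, and each list held few genes. Their part in the results, and the cell type in which condensin genes differed, was not tested.

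Outside these lists, 5 genes were most like the mean of the standardised log2 CPM of the 8 condensin genes over the 6 libraries. The candidates were 11028 genes with an average log2 CPM of 2 or more, without predicted-gene symbols (Gm or Rik). The 5 genes were Ube2v1 (Pearson r 0.999), Cdc45 (0.998), Derl3 (0.997), Spc24 (0.996) and Mcm2 (0.995). The 6 libraries and their groups are shared by all genes, so these values only rank likeness. Ube2v1, with the highest value, had a log2 fold change of 0.23 that did not pass (adjusted p = 0.11), and Derl3, an endoplasmic reticulum protein, rose by 1.63 (SE 0.25, adjusted p = 0.022).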

How the data were processed

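The authors deposited whole-number counts for 23420 gene symbols in 6 libraries, without normalization. The submitters' processing notes name bcl2fastq, kallisto, limma, GRCm38 and mm10, without versions or roles, and the step from reads to counts per symbol is not given in these sources. The authors' deposited comparison gives a log2 fold change and log2 average expression, scores (a moderated t and log odds), and raw and adjusted p-values, per the file headers. Table columns were matched to libraries by number, and replicates were numbered in accession order.

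The test on counts used edgeR 4.0.16 under R 4.3.3 (filterByExpr, TMM scaling, robust quasi-likelihood, group as the only term, Benjamini-Hochberg adjustment over 14903 genes). SE is the absolute log2 fold change over the square root of F, and 95% intervals use its t quantiles. DESeq2 1.42.0, limma 3.58.1, other scalings and filters, and leaving out each library were alternatives. The fit was tested on simulated data. Depth was 20968058 to 48178375 counts, and replicates differed by more than counting noise (chi-square per degree of freedom 13.6 to 54.5). Ratios were tested with scipy 1.17.1. Coordinates and transcript lengths came from GENCODE M21 (GRCm38) and promoters from RefSeq (GRCm38.p6).

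The members and lists were chosen with earlier results of these data known. All members are named, and from other lists genes that passed or had the lowest p. Rad21, Smc6, Mcph1, Chtf8, Pttg1, Sgo1 and the T and B cell markers were named after their values were seen. Protein sequences were not analysed here. Of the cell markers, 1 is not reported here and is not in their sums.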

Additional observations from a re-analysis of the deposited data

How the results depend on the processing

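The calls of Smc2, Smc4, Ncapd2 and Ncapg2 held under all 14 alternatives. With libraries scaled by size alone, Smc1a was at 0.14 and no longer passed, so 0 cohesin arms were called, 1113 genes were lower over all genes and 3 other cohesin genes fell. Ncaph passed in DESeq2 (1.37) and limma voom (1.57), and Ncaph2 in DESeq2 (0.21). Without robust dispersions 3 other cohesin genes rose. Leaving out 1 library gave 336 to 560 higher and 112 to 303 lower genes, 0 cohesin arms, 1 to 6 other cohesin genes and 3 to 7 chromosome axis genes that rose, and log2 fold changes of 1.19 to 1.68 for Ncapg, 0.99 to 1.60 for Ncaph and 0.18 to 0.22 for Smc1a. The cause was not tested. Fits without a library hold fewer samples. No paired analysis was possible because each library has a number of its own in the labels. Counts of 29 to 92 for Ncaph and 36 to 82 for Ncapg in Control libraries limit the precision of these genes.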

Other observations

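Among genes of meiotic cohesin, Rec8, a meiotic kleisin, was counted in islets and the others listed hardly were. Rec8 had 30.03, 29.1 and 30.04 CPM in OIO replicates 1 to 3, and 33.6, 32.4 and 36.2 CPM in Control replicates 1 to 3, from 627 to 1453 counts per library. All OIO libraries were below all Control libraries, with a log2 fold change of −0.20 (SE 0.06) that did not pass in edgeR with TMM scaling (adjusted p = 0.093). With libraries scaled by size alone it was called lower, at −0.26 (adjusted p = 0.0315), and over all 14 alternatives the adjusted p lay between 0.0315 and 0.287. Smc1b had 0 to 8 counts, Rad21l 2 to 8 and Stag3 1 to 15 per library. In GENCODE M21 no other annotated gene overlaps Rec8.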
